A study of Mus musculus with 4 samples.

Results

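The vacuolar proton pump (V-ATPase) is described here through 10 of its subunit genes: 6 of the membrane sector V0 (Atp6v0d2, Atp6v0d1, Atp6v0a1, Atp6v0a2, Atp6v0b and Atp6v0e) and 4 of the cytosolic sector V1 (Atp6v1a, Atp6v1b2, Atp6v1f and Atp6v1h). They were picked by gene symbol, with earlier results of these data known, out of 19938 genes on the array. All 10 were found, on 12 array features, and for the 2 genes with more than 1 feature the brighter one was used. The cells were MC3T3-E1, a line of mouse pre-osteoblasts from the calvaria of C57BL/6 mice, kept in medium with 1% serum. Control cells were untreated, and the other cells received citalopram, a selective serotonin reuptake inhibitor, at 100 µM. RNA was collected at day 3 and day 7, and each of the 4 combinations was read on 1 Affymetrix array. The labels describe 3 wells per treatment and do not say how wells were combined for an array. No group has a replicate, so a difference between a pair of arrays carries no error estimate.

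The pump hydrolyses ATP in V1 and uses the energy to turn a rotor that carries protons through V0 into lysosomes, endosomes and Golgi vesicles. In bone it is best known from the osteoclast, which sends the pump to its surface to dissolve mineral, whereas all cells need it to acidify lysosomes. Transcription factors of the MiT/TFE family (TFEB, TFE3, MITF) are known to bind an E-box element near the start of many lysosomal genes, pump subunit genes among them. Several subunits exist as isoforms. Atp6v0d2 encodes the d2 isoform, typical of osteoclasts and some epithelia, and Atp6v0d1 the d1 isoform found in most tissues.

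The labelled cell type was checked against marker genes. A gene was taken as above the floor on an array when its value reached the 40th percentile of genes there, at 5.95 to 6.01 on the deposited log2 scale. Of 9 osteoblast markers measured, 8 reached the floor on at least 1 array, among them Sparc (13.84 to 14.07), Col1a1 (11.92 to 12.64) and the osterix gene Sp7 (7.71 to 8.24). Alpl lay close to the floor (5.93 to 6.09), and Ibsp lay below it on every array (5.35 to 5.58). The markers Runx2, Bglap and Spp1 were not analysed here. Of 12 osteoclast markers, 5 lay below the floor on every array: Acp5 (5.53 to 5.72), Dcstamp (5.51 to 5.67), Ocstamp (5.82 to 5.99), Calcr (4.89 to 5.04) and Oscar (4.95 to 5.10). The other 7 reached it on at least 1 array. Of these, Ctsk (10.27 to 10.73), Tcirg1 (9.92 to 10.32), Nfatc1 (8.86 to 9.39) and Itgb3 (7.79 to 8.61) were well above it. Mmp9 (5.87 to 6.20), Tnfrsf11a (5.95 to 6.31) and Siglec15 (6.03 to 6.22) lay close to it. The mean over the 12 was 6.97 (control) and 7.06 (citalopram) on the arrays of day 3, and 6.92 and 6.91 on those of day 7. Of 12 macrophage markers, 9 lay below the floor on every array, Ptprc, Adgre1 and Csf1r among them. Their mean was 6.00 and 6.07 at day 3 and 5.96 and 5.94 at day 7. Over 35556 features, the lowest correlation between any pair of arrays was 0.986 and the highest 0.995, as Pearson's r across features.

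Start windows of 6 of the 10 genes, each from 250 bases before to 50 bases after the transcription start, were available from RefSeq (build GRCm38.p6). The genes Atp6v0d2, Atp6v0a2, Atp6v1b2 and Atp6v1h had none here. An E-box core, CACGTG, was searched on both strands and occurred in the windows of Atp6v0d1, Atp6v0b, Atp6v0e and Atp6v1a, 4 of 6, against 7.15% of 32851 windows of all genes. The longer TCACGTGA, which contains that core, occurred in 3 of the 6 windows, against 0.974% of all windows. The AP-1 motif TGANTCA occurred once, in Atp6v0a1, against 7.81% of all windows. In 16 windows of 11 other pump subunit genes, 0 held any of the 3 motifs. The stretches shown were picked because they hold the core, so their likeness there follows from the search. The matches are shown 5′ to 3′ on the gene's strand, with 10 bases on either side of the core and the match in capitals:
Atp6v0d1, chr8:105566052-105566077, minus strand: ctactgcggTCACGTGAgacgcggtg
Atp6v0e, chr17:26676389-26676414, plus strand: gcgcgccgaTCACGTGAgcctctgtt
Atp6v1a, chr16:44139375-44139400, minus strand: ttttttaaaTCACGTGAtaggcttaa
Atp6v0b, first match, chr4:117887350-117887375, minus strand: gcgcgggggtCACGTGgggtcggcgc
Atp6v0b, other match, chr4:117887332-117887357, minus strand: gtcggcgcatCACGTGcgccggtcag

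In Atp6v0d1 the core spans the start itself (bases -3 to 3, with 1 as the first transcribed base and no base 0), and in Atp6v0e it lies just after it (bases 4 to 9). In Atp6v1a it lies upstream, at bases -131 to -126. Atp6v0b holds the core at 2 places, bases -36 to -31 and -18 to -13, both without the flanking bases of the longer motif. The 250 upstream bases of Atp6v0b and Atp6v1a are printed to show these matches in place, and those of Atp6v0a1 because it had the largest citalopram difference at day 3 among members with a window and held no E-box core. Capitals mark matches to any of the 3 motifs:
Atp6v0b, chr4:117887330-117887579, minus strand: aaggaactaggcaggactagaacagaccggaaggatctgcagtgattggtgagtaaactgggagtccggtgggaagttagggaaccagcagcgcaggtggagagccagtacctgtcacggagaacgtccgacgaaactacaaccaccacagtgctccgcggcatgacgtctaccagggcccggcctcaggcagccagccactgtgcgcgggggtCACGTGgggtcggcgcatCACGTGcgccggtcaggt
Atp6v1a, chr16:44139260-44139509, minus strand: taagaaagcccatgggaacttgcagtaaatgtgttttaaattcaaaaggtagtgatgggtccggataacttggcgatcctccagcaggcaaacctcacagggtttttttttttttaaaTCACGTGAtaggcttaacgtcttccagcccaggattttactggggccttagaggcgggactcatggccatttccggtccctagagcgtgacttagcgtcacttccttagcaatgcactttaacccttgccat
Atp6v0a1, chr11:101010148-101010397, plus strand: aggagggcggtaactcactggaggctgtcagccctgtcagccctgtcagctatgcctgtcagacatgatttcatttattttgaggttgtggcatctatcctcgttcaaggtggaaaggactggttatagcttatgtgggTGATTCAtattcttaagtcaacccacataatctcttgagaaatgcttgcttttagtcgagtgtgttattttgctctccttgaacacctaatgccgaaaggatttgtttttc

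A match is a string of letters and not a measured binding site. G and C made up 43.6% of the upstream bases of Atp6v0a1 and 46.4% of those of Atp6v1a. The share was 54% in Atp6v0e, 54.4% in Atp6v1f, 60.4% in Atp6v0d1 and 62% in Atp6v0b, against a median of 52.4% over all windows.

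**Figure D1:**
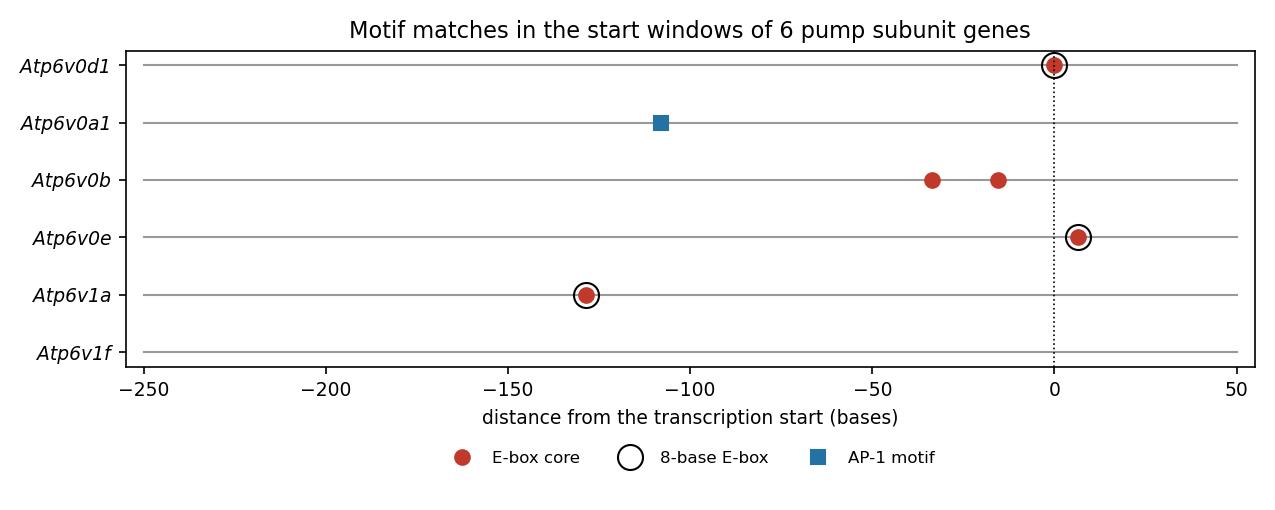
Positions of motif matches in the RefSeq start windows of 6 pump subunit genes, by distance from the transcription start in bases (x axis). Filled circles are E-box cores, open circles the longer E-box and the square an AP-1 motif; Atp6v0d1 and Atp6v0e carry the longer E-box at the start, Atp6v1a carries it at bases -132 to -125, and Atp6v1f has no match.

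At day 3, each of the 10 genes was higher with citalopram than in control, by a median of 0.20 on the log2 scale, where 57.7% of 12196 genes above the floor were higher and their median was 0.03. All 10 were also higher under the 3 other scalings of the arrays, but only 8 when the features of a gene were averaged, since Atp6v0a2 and Atp6v1f then changed sign. Without Atp6v0d2 the median was 0.19. A single member, Atp6v0d2, passed 1.5-fold, against 0.804% of all genes. The value of an array is a mixture over all cells of a culture, so a change in the number of cells of a type and a change in the RNA per cell cannot be told apart. Markers of cell types were higher as well: 7 of 8 osteoblast markers (median 0.16, with Sp7 at 0.46) and 6 of 7 osteoclast markers (median 0.12, Tcirg1 of the pump among them), but 1 of 3 macrophage markers (median -0.01). At day 7 the medians were 0.03, 0.04 and 0.15. The osteoclast markers then ran from Tnfrsf11a at -0.36 to Itgb3 at 0.51, with Nfatc1 at 0.43. Alpl at both days and Mmp9 at day 7 were below the floor with citalopram and counted through control alone. The part of these markers in the result was not tested.

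Atp6v0d2, whose d subunit sits at the base of the rotor, had a log2 value of 5.95 (control) and 6.90 (citalopram) on the day 3 arrays, and of 5.68 and 6.13 on the day 7 arrays. Both control arrays lay below the floor and both citalopram arrays above it, so the gene entered the counts through citalopram alone, and its fold rests on a control value that was not above the floor. The measured difference was 0.95 at day 3, 1.93-fold, and 0.45 at day 7, 1.37-fold. Against the floor of the control array in place of its value, citalopram was higher by 0.91 at day 3 (1.88-fold) and by 0.14 at day 7 (1.10-fold). Of the 4 arrays, citalopram at day 3 was the highest and control at day 7 the lowest.

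Atp6v0d1, the isoform of the same subunit found in most tissues, was bright and nearly level, at 11.61 (control) and 11.76 (citalopram) on day 3 and 11.73 and 11.53 on day 7. Its differences were 0.15 at day 3 and -0.21 at day 7. The 2 isoform genes therefore shared the sign of the citalopram difference at day 3 and had opposite signs at day 7.

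Atp6v0a1 and Atp6v0a2 encode isoforms of the a subunit, the stationary arm of V0 that holds the proton path and helps place the pump in the cell. Atp6v0a1 was at 10.81 (control) and 11.25 (citalopram) on day 3 and at 10.80 and 10.78 on day 7. Only the citalopram array of day 3 stood out, by 0.44 over its control (1.36-fold), a difference larger than in 98.2% of genes. At day 7 the difference was -0.02. Atp6v0a2 was at 10.29 and 10.43 on day 3 and at 10.24 and 10.08 on day 7, with differences of 0.14 and -0.16. Its dimmer feature, at 6.92 to 7.17, went the other way at day 3 (-0.24) and differed by 0.01 at day 7.

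Atp6v0b encodes a subunit of the proton-carrying ring, and Atp6v0e a small membrane subunit beside it. Atp6v0b was at 10.75 (control) and 10.80 (citalopram) on day 3 and at 11.22 and 11.02 on day 7. Its citalopram difference was the smallest of the 10 at day 3 (0.05) and was -0.20 at day 7. Atp6v0e was at 11.41 and 11.61 on day 3 and at 11.63 and 11.54 on day 7, with differences of 0.21 and -0.09. For both genes the control array of day 3 was the lowest and the control array of day 7 the highest.

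Atp6v1a encodes the catalytic A subunit that splits ATP, and Atp6v1b2 the B subunit that alternates with it in the V1 head. Atp6v1a was at 10.85 (control) and 11.07 (citalopram) on day 3 and at 11.23 and 11.20 on day 7, so its citalopram difference was 0.21 and then -0.03. Atp6v1b2 was at 11.72 and 11.98 on day 3 and at 11.68 and 11.73 on day 7. Its differences were 0.27, larger than in 91.2% of genes, and 0.06. Besides Atp6v0d2, Atp6v1b2 was the only member that was higher with citalopram at both days.

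Atp6v1f encodes a subunit of the central stalk, and Atp6v1h the subunit that holds ATP splitting in check when V1 is detached from V0. Atp6v1f was at 11.10 (control) and 11.17 (citalopram) on day 3 and at 11.79 and 11.53 on day 7. Its citalopram difference of 0.07 at day 3 turned to -0.26 at day 7, the lowest of the 10. The second feature of Atp6v1f gave -0.12 and -0.22. Atp6v1h was at 10.31 and 10.50 on day 3 and at 10.37 and 10.29 on day 7, with differences of 0.19 and -0.07.

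**Figure D2:**
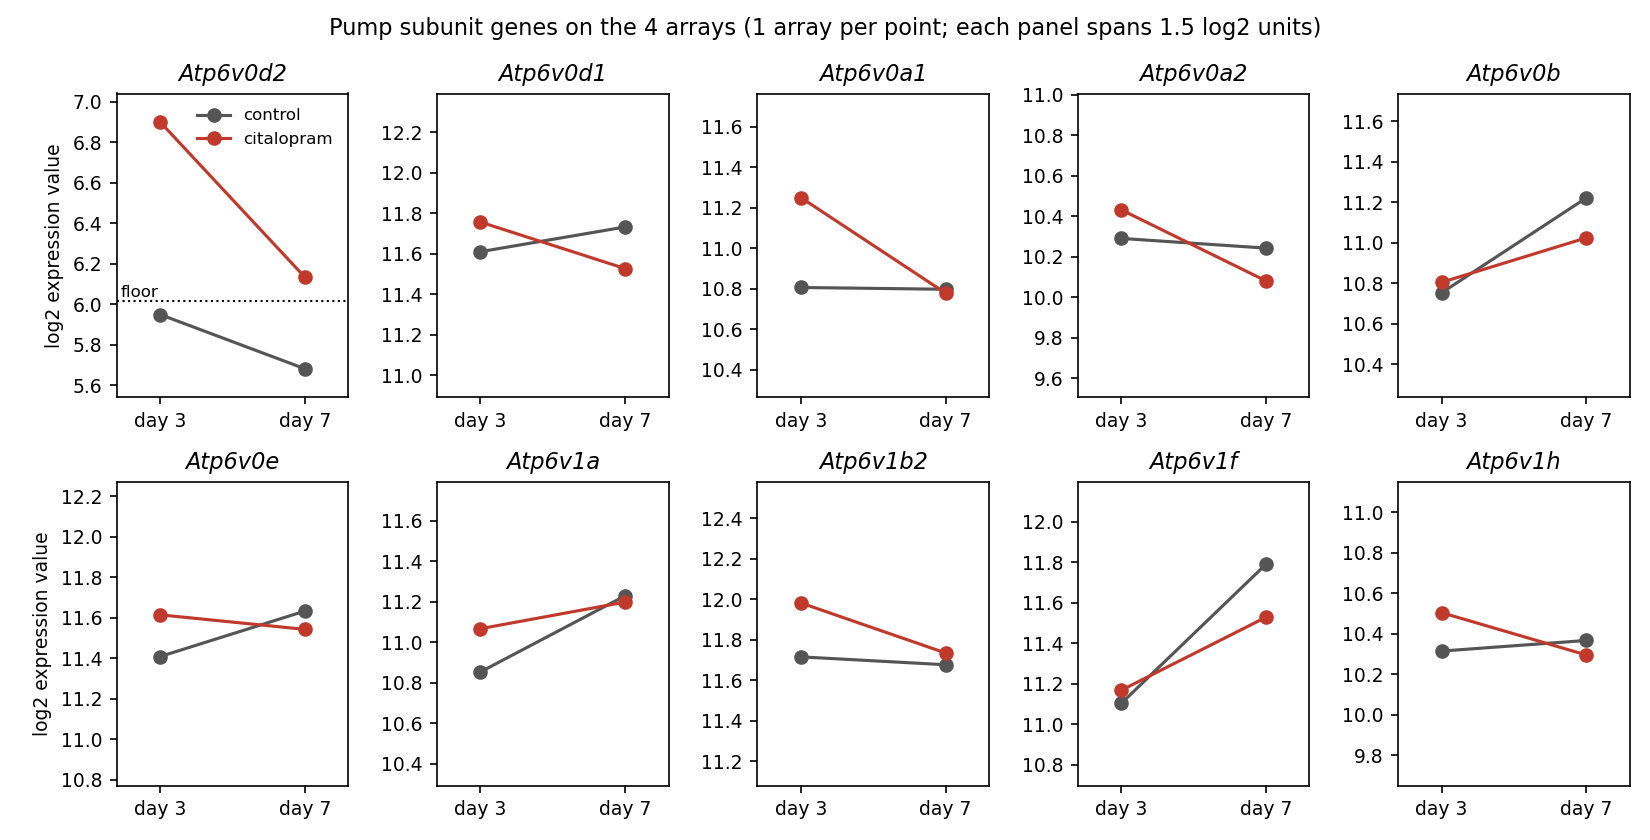
Deposited log2 expression values (y axis) of the 10 pump subunit genes at day 3 and day 7 (x axis), 1 array per point, in grey for control and red for citalopram; the panels span ranges of equal length. Atp6v0d2 is the only gene whose control points lie below the floor (dotted line, at the highest floor of the 4 arrays), and in 8 of the other 9 the citalopram point is above control at day 3 and below it at day 7.

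At day 7, 8 of the 10 genes were lower with citalopram, against 48.7% of 12167 genes, with a median of -0.08 where the median of all genes was 0.01. No member passed 1.5-fold, which 1.5% of all genes did. The V0 members had a median of -0.13 and the V1 members one of -0.05; at day 3 these medians were 0.18 and 0.20. The sign of the difference at day 7 was the same for every member under the 3 other scalings and with averaged features.

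**Figure D3:**
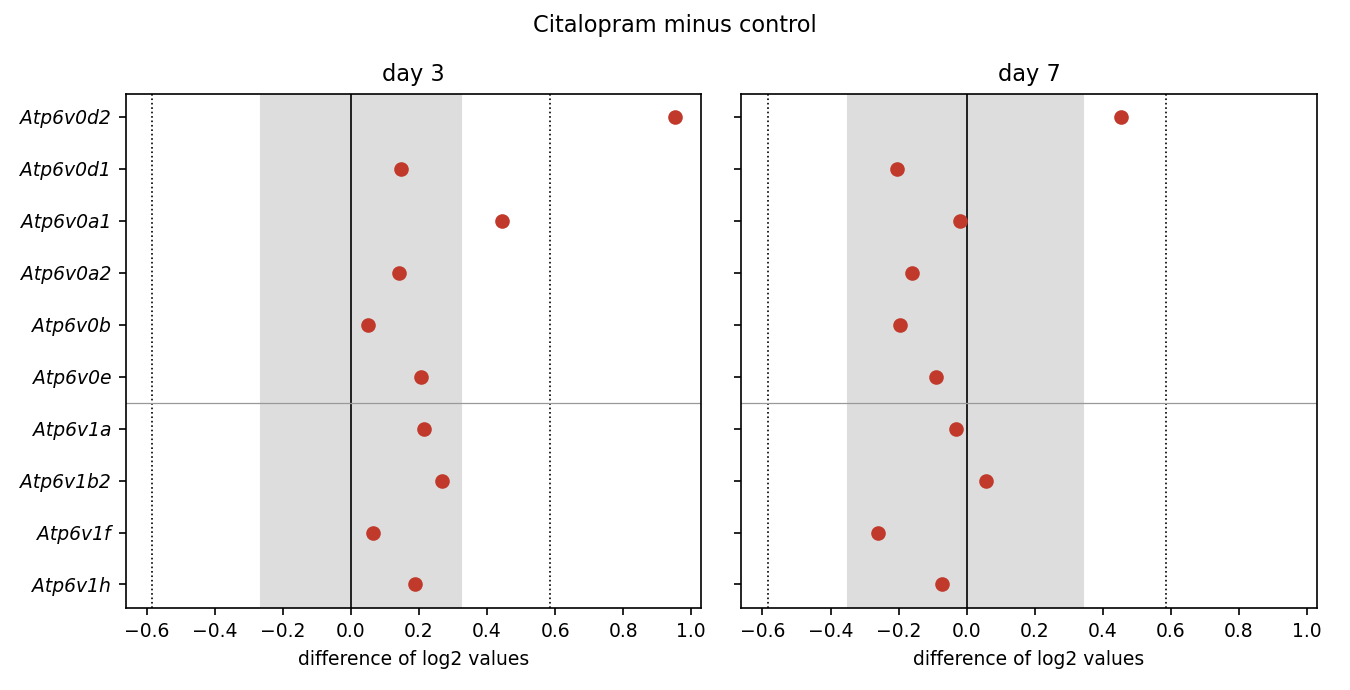
Citalopram minus control in log2 values (x axis) for each pump subunit gene (y axis; V0 above the line, V1 below) at day 3 (left) and day 7 (right). The shaded band runs from percentile 5 to percentile 95 of all genes above the floor, and dotted lines mark 1.5-fold; Atp6v0d2 and Atp6v0a1 lie above the band at day 3, and only Atp6v0d2 does at day 7.

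For each of the 10 genes the citalopram difference was lower at day 7 than at day 3. The shift ranged from -0.50 in Atp6v0d2 and -0.46 in Atp6v0a1 to -0.21 in Atp6v1b2, with a median of -0.30. That of Atp6v0d2 rests on control values below the floor at both days. Among 11952 genes above the floor at both days 54.8% had a lower difference at day 7, with a median shift of -0.03. A difference that was above 0 at day 3 and below 0 at day 7 was seen in 8 of the 10 genes and in 26.7% of all genes. These shifts use all 4 arrays once and have no test, since no group has a replicate. The median shift was -0.25 after quantile normalization, -0.27 after cyclic loess and -0.35 after median centring. With averaged features it was -0.26, and Atp6v0a2 and Atp6v1f, below 0 at both days, no longer changed sign.

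In control cells, 9 of the 10 genes were above the floor, and 6 of these 9 were higher at day 7 than at day 3 (median 0.12), against 47.2% of 12201 genes. Over all 10, with Atp6v0d2 below the floor, the median was 0.09, which became -0.02 after median centring. The count of higher members was 7 after quantile normalization and 5 after centring. That scaling moved the median of all genes from -0.01 to -0.12 in this comparison, and the median of the 10 stood 0.10 above it on either scale. Atp6v1f was higher by 0.69 (1.61-fold) and alone passed 1.5-fold, against 2.29% of all genes. Its second feature differed by 0.48, which is under 1.5-fold, and median centring took the first to 0.58, just under that limit. Atp6v0b was higher by 0.47 (1.38-fold) and Atp6v1a by 0.38, while Atp6v0a1, Atp6v1b2 and Atp6v0a2 differed by -0.01, -0.04 and -0.05. Atp6v0d2 was lower by 0.27 with both arrays below the floor.

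With citalopram, 7 of the 10 genes were lower at day 7 than at day 3, against 55.8% of 12187 genes, with a median of -0.22 where all genes had -0.04. Median centring took the median to -0.37, and that of all genes to -0.19. Atp6v0d2 was lower by 0.77 (1.70-fold) and alone passed 1.5-fold on the deposited scale, against 4.81% of all genes; after centring Atp6v0a1 passed it too (-0.63). Atp6v0a1 was next at -0.47, then Atp6v0a2 at -0.35, Atp6v1b2 at -0.25, Atp6v0d1 at -0.23 and Atp6v1h at -0.21. The 3 genes with the largest difference in control had smaller ones here: Atp6v1f 0.36, Atp6v0b 0.22 and Atp6v1a 0.13. After centring Atp6v0b was at 0.06 and Atp6v1a turned to -0.02. The comparisons between days share arrays with those between treatments, so the 4 differences of a gene are not separate observations. Of the 4 arrays, citalopram at day 3 was the highest for 6 genes and control at day 7 for the other 4.

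**Figure D4:**
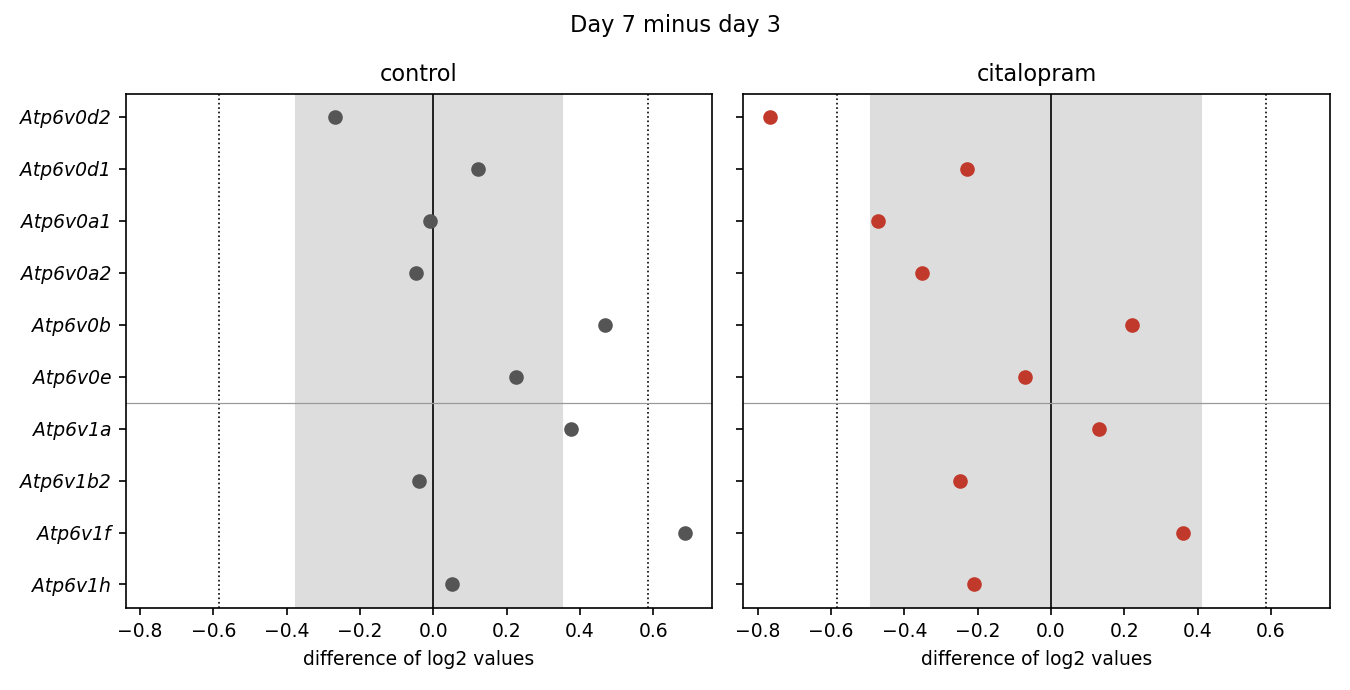
Day 7 minus day 3 in log2 values (x axis) for each pump subunit gene (y axis), in control (left) and with citalopram (right). The shaded band runs from percentile 5 to percentile 95 of all genes above the floor and dotted lines mark 1.5-fold; Atp6v1f, Atp6v0b and Atp6v1a lie above the band in control, and Atp6v0d2 alone lies below it with citalopram.

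The test available takes the days as repeats of a treatment and the treatments as repeats of a day, in a limma fit with both terms and 1 residual degree of freedom per gene. For citalopram it called 0 of the 10 genes and 0% of 12415 genes at an adjusted p under 0.05, and without adjustment 661 genes on the higher side and 458 on the lower met that limit. The 1 member that met it without adjustment was Atp6v0d2, with a log2 difference of 0.70, a standard error of 0.13 and limma's adjusted p = 0.312. Its control values lay below the floor on both days, so it entered the fit through the citalopram arrays, and its estimate rests on those control values. The result depended on the scaling, as did the number of all genes called (139 after quantile normalization, 40 after cyclic loess and 103 after median centring): limma's adjusted p for Atp6v0d2 was 0.00535 after quantile normalization, 0.0324 after cyclic loess and 0.0106 after median centring. It ranged from 0.303 to 1.00 under the 4 alternatives that kept the deposited scale. The term averages the days, and so says little of members with opposite signs at day 3 and day 7. For the other 9 members the smallest adjusted p was 0.718, that of Atp6v0a1. Of the cell type markers limma called 0 for citalopram. Without adjustment 1 of 8 osteoblast, 2 of 7 osteoclast and 1 of 3 macrophage markers were under 0.05, all on the higher side (9.01% of all genes, either side).

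For the day term limma called 0 of the 10 members, against 2.8% of 12415 genes (163 higher and 185 lower; 459 and 1085 after quantile normalization, 237 and 2057 after median centring). Without adjustment 1021 genes on the higher side and 1475 on the lower met the limit, 3 members among them. Atp6v1f had a difference of 0.52 (standard error 0.12, limma's adjusted p 0.0577), Atp6v0b one of 0.34 (0.11, 0.135) and Atp6v0d2, below the floor in control, one of -0.52 (0.13, 0.0830). Each differed in the same direction in both pairs of arrays. Under the 3 other scalings limma called Atp6v1f and Atp6v0d2 each time, with Atp6v0b added by quantile normalization and Atp6v0a1 by median centring.

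The remaining subunit genes give a reading of the pump outside the 10. Of 12 measured, 9 were above the floor at day 3, of which 6 were higher and 3 lower with citalopram (median 0.07), where 57.7% of all genes were higher. The higher ones were Tcirg1, the a3 isoform needed by osteoclasts (0.23), Atp6v1g1 (0.17), Atp6v1d (0.15), Atp6v0e2 (0.08), Atp6v1c1 (0.07) and Atp6v1e1 (0.06). The lower ones were Atp6v1e2 (-0.24), Atp6v1g2 (-0.24) and Atp6v1b1 (-0.21), isoforms known from testis, neurons and kidney. Atp6v1e2 and Atp6v1b1 were below the floor on the citalopram array, so they counted through control alone and their differences rest on values below the floor. At day 7, 3 of 9 were higher and 6 lower (median -0.02), where 51.3% of all genes were higher, from Atp6v0e2 at 0.05 to Atp6v1g2 at -0.26. Among these, Atp6v1c2 (0.01) was below the floor in control and counted through citalopram alone. Atp6v1e2 (-0.16) was below it with citalopram and again counted through control alone. The change from above 0 at day 3 to below 0 at day 7 was not confined to the 10, and 26.7% of all genes showed it. It was seen in Atp6v1c1 (0.07 and -0.08), Atp6v1d (0.15 and -0.01), Atp6v1e1 (0.06 and -0.09) and Atp6v1g1 (0.17 and -0.02). Tcirg1 and Atp6v0e2 were higher at both days, and Atp6v1e2 and Atp6v1g2 lower at both. None of the 9 passed 1.5-fold at either day, against 0.804% of all genes at day 3 and 1.5% at day 7. Limma called 0 of 10 for citalopram, with 1 below 0.05 without adjustment, where 9.01% of all genes tested were. Related groups were counted on the deposited scale. Atp6v0c, the main ring subunit, was not analysed here.

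Accessory proteins and factors that assemble the pump showed no common direction. At day 3, 9 of 14 were higher (median 0.05), against 57.7% of all genes, from Wdr7, a part of the complex that joins V1 to V0, at 0.35 to its partner Rogdi at -0.18. At day 7, 7 were higher and 7 lower (median 0.03), against 51.3% of all genes higher, from the assembly factor Tmem199 at 0.31 to Vma21, another such factor, at -0.27. Tldc2 (0.19) was below the floor in control at that day, so it counted through citalopram alone. The pump's own accessory subunits Atp6ap1 (-0.09 and -0.23) and Atp6ap2 (-0.12 and -0.02) were lower at both days. Ccdc115, which acts with Tmem199 in assembly, was the 1 gene here past 1.5-fold. It was lower at day 7 than at day 3 in control (-0.88) and with citalopram (-0.91). In these comparisons 2.29% and 4.81% of all genes passed 1.5-fold. Ccdc115 was also the only one of the 14 that limma called for the day term (-0.89, standard error 0.10, adjusted p 0.00541), against 2.8% of all genes. For citalopram limma called 0 of 14, with 1 at an unadjusted p under 0.05 (9.01% of all genes).

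Lysosomal ion channels and transporters, which share the membrane with the pump, had 11 of 12 genes higher under citalopram on day 3 (median 0.12, against 57.7% and 0.03 over all genes). Clcn5, an endosomal chloride-proton exchanger gene, led with 0.50 and was at 0.09 at day 7. Mcoln1, the lysosomal calcium channel gene, was at 0.35 and -0.04, and Clcn7, the chloride exchanger of lysosomes and osteoclasts, at 0.18 and 0.02. The lowest at day 3 was Slc9a9 (-0.17). At day 7, 7 of 11 were higher (median 0.08, against 51.3% and 0.01 over all genes), from Clcn3 (0.21) to Ostm1, the partner of Clcn7 (-0.27). None passed 1.5-fold at either day, against 0.804% of all genes at day 3 and 1.5% at day 7. For citalopram limma called 0 of 12, 1 of them being at an unadjusted p under 0.05 (9.01% of all genes).

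Of the MiT/TFE factors and the nutrient-sensing proteins that control them at the lysosome, 13 of 17 were higher with citalopram at day 3 (median 0.14, against 57.7% and 0.03 over all genes). At day 7, 14 of 17 were (median 0.14, against 51.3% and 0.01). Unlike the pump subunits, this group had a median above 0 at both days. So did the lysosomal channels and transporters (0.12 and 0.08) and the accessory and assembly proteins (0.05 and 0.03). The difference between the groups was not tested. Mitf was higher by 0.32 and 0.09 and Tfe3 by 0.21 and 0.15, while Tfeb was at -0.21 and 0.09 and Tfec lay below the floor. Rragd, a small GTPase that brings these factors to the lysosome, had measured differences of 0.35 and 0.40, with both control arrays below the floor. Against the floor it was higher by 0.26 and 0.37, and Fnip1 was at 0.33 and 0.19. The lowest were Lamtor2 at day 3 (-0.34) and Lamtor1 at day 7 (-0.34). Limma called 0 of 17 for citalopram, with 3 at an unadjusted p under 0.05 (9.01% of all genes).

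Other ion pumps and acid-base genes served as a comparison within the same functional class. Only 4 of 8 measured reached the floor at day 3, with 2 higher and 2 lower (median -0.05), against 57.7% of all genes higher, from Slc4a2 (0.10) to Atp1b3 (-0.35). Atp1b2 (-0.11), counted as lower, was below the floor with citalopram and entered through control alone. Its difference, and with it the median of so few genes, rests on that value. At day 7 the 3 above the floor were all lower (median -0.09), against 48.7% of all genes, from Slc4a2 (-0.03) to Atp1b1, a sodium pump subunit gene (-0.57). Atp1b1 was lower by 0.81 at day 7 than at day 3 with citalopram, past 1.5-fold (4.81% of all genes), and by 0.22 in control. Limma called 0 of 4 for either term, with 0 and 1 at an unadjusted p under 0.05 (9.01% and 20.1% of all genes).

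**Figure D5:**
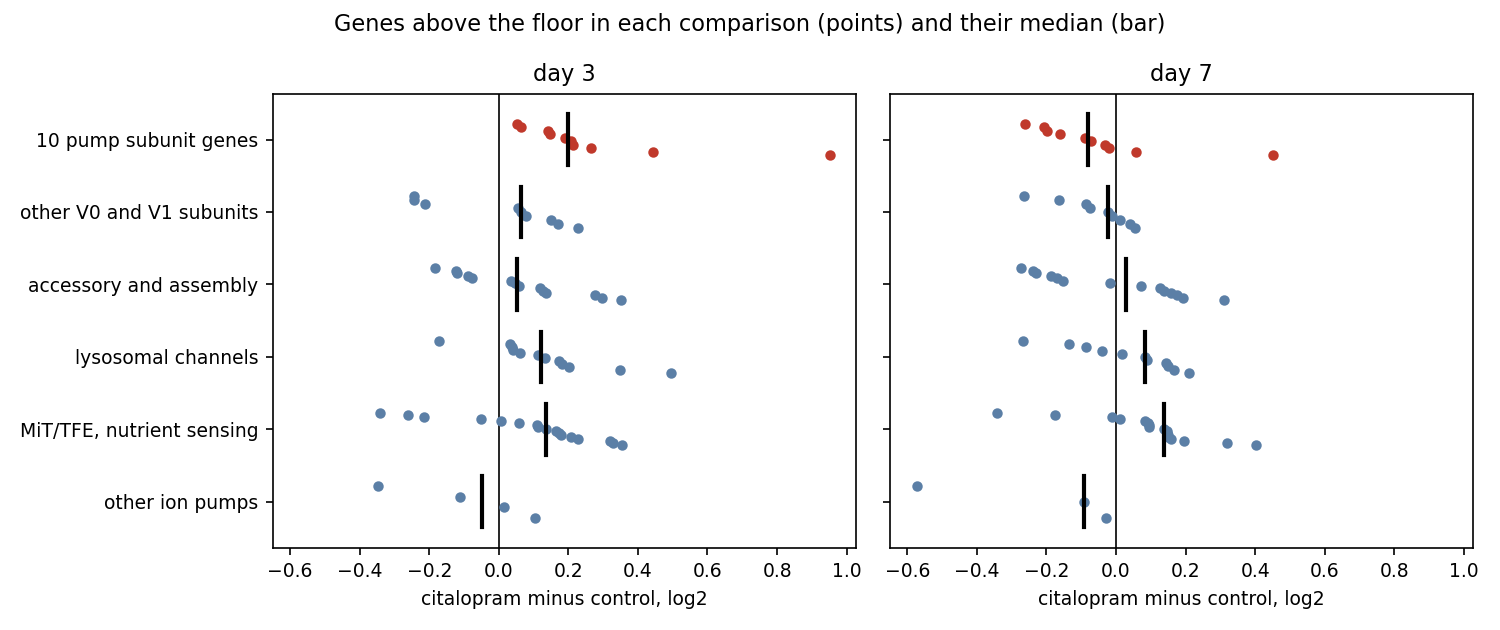
Citalopram minus control in log2 values (x axis) at day 3 (left) and day 7 (right) for genes of the pump and of related groups (y axis). Each point is a gene above the floor in that comparison and each bar a median; the bar of the 10 pump subunit genes moves from 0.20 to -0.08, and that of the MiT/TFE and nutrient-sensing genes is 0.14 at both days.

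The genes whose values over the 4 arrays were most like those of Atp6v0d2 were Flrt3, Gpnmb, Ifi207, Lyz2 and Ssxb5, by the distance between values centred on each gene's mean (0.23 to 0.31, among 11556 genes). Gpnmb, a transmembrane glycoprotein gene also called osteoactivin, was higher with citalopram by 0.74 at day 3 and 0.54 at day 7. Flrt3, an adhesion protein gene, was at 0.64 and 0.39, and Ifi207, an interferon-inducible gene, at 0.71 and 0.31. Lyz2, the lysozyme gene used as a macrophage marker, was at 8.93 (control) and 9.50 (citalopram) on day 3 and at 8.60 and 9.07 on day 7. The other macrophage markers above the floor differed by -0.01 (Cd68) and -0.04 (Cd14) at day 3 and were both higher with citalopram at day 7, by 0.15 each. Ssxb5 lay below the floor on 3 of the 4 arrays. The genes were chosen for their likeness to Atp6v0d2, so the signs they share with it are no result. Closeness over 4 arrays is a weak measure and it carries no test.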

How the data were processed

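Affymetrix arrays of 4 samples, 1 per group, were used. The deposited values are log2 expression values per feature, made by the authors; Partek is named without a version, per the submitters' processing notes. The background correction and normalization the authors chose are not stated in the labels, and the base of the logarithm was inferred from the range (3.90 to 15.5). Array medians ran from 6.50 to 6.66. Per the labels' protocols, 250 ng of total RNA was labelled per array.

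Of 35556 features, 21789 with 1 gene symbol in the platform annotation were used; 1621 had several symbols and 12146 none. Per gene, the feature with the highest mean was kept. The 10 members' symbols were found by Entrez number in RefSeq (GRCm38.p6). A gene counted in a comparison when its brighter array reached the 40th percentile. Differences between single arrays have no p-value. P-values came from limma 3.58.1 (R 4.3.3; lmFit and eBayes, two-sided, Benjamini-Hochberg over all genes above the floor on any array), checked on artificial data. In the 2-term fit the 1 residual degree of freedom of a gene is the change of its citalopram difference between the days. The p-values weigh a term against that change, moderated across genes, and not against a spread between replicates. With 1 array per group, that change cannot be told apart from technical variation. Python 3.11.15 with pandas 2.3.3 did the rest.

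The members, gene lists and motifs were chosen with earlier results of these data known. Of each list, genes past 1.5-fold and the highest and lowest at each day were to be named; others named were added after their values were seen. Alternatives were quantile normalization, cyclic loess, median centring, averaged features, no floor, a trend and single-term fits.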

Additional observations from a re-analysis of the deposited data

Results flagged for a closer look

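The citalopram difference had opposite signs at day 3 and day 7 in 8 pump subunit genes, higher first and lower later, with 1 pair of arrays per day. The day 7 difference minus the day 3 difference was -0.46 for Atp6v0a1, -0.35 for Atp6v0d1, -0.33 for Atp6v1f and -0.30 for Atp6v0a2. It was -0.30 for Atp6v0e, -0.26 for Atp6v1h, -0.25 for Atp6v0b and -0.24 for Atp6v1a. These differences between the days were not tested. With averaged features, Atp6v0a2 and Atp6v1f were below 0 at both days and no longer changed sign.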

How the results depend on the processing

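For the citalopram comparisons, the median of the 10 genes ran from 0.17 to 0.20 at day 3 and from -0.14 to -0.07 at day 7 over the scalings and averaged features, and the count past 1.5-fold stayed at 1 and 0. The median shift between the days ran from -0.35 to -0.25; its alternatives, and the medians without Atp6v0d2, were chosen after seeing the data. Median centring turned the control day difference from 0.09 to -0.020, with 0 genes past 1.5-fold in place of 1, and took the citalopram day difference from -0.22 to -0.37, with 2 genes in place of 1; averaged features also left 0 in control. That scaling moved the median of all genes by over 0.1 between days. For citalopram, limma called 1 member after each of the 3 scalings and 0 otherwise. For day it called 2 members after cyclic loess, 3 after quantile normalization and after median centring, and 0 otherwise. Over all genes, limma's citalopram calls went from 0 to 139 (quantile), 40 (loess) and 103 (centring), and its day calls from 348 to 1544 (459 higher, 1085 lower), 1018 (436 higher, 582 lower) and 2294 (237 higher, 2057 lower). They were 190 without a floor and 68 with day alone. Of 160 single member differences recomputed, 5 changed sign. Averaged features can alter only the 2 members with more than 1 feature, Atp6v0a2 and Atp6v1f, and both changed sign at day 3. The cause of these changes was not tested. Leaving out an array leaves the 2-term fit no residual degree of freedom, so no such test was run.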
